A study of Rattus norvegicus with 23 samples.

Results

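The 10 genes described here encode enzymes of glycolysis: the hexokinases Hk1, Hk2 and Hk3, the phosphofructokinase subunits Pfkl, Pfkm and Pfkp, the aldolase Aldoa, the phosphoglycerate kinase Pgk1, the phosphoglycerate mutase Pgam1 and the enolase Eno1. They were taken from the array by gene name. The design carried 13 probes for them among 41012 probes, printed as 22 spots, since the Pgk1 probe was spotted 10 times. A feature is a gene through its brightest probe, or a probe with no gene name, and 20755 features were tested, of which 9 were these enzymes. Hk2 was left out because its probe did not pass the filter on dim signals.

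RNA came from peripheral blood mononuclear cells (PBMC, the lymphocytes and monocytes of blood) of Wistar rat pups killed at 21 days of age, in the fed state. The 4 groups were 5 males and 6 females suckled by calorie-restricted (CR) dams, and 6 males and 6 females suckled by control dams. CR dams received a diet cut by 20% in calories from delivery to weaning, control dams ate standard chow freely, and pups of both kinds were raised in litters trimmed to a common size. There were 5 CR dams and 11 control dams, from 16 litters, and which pup came from which litter is not stated. The 11 CR pups came from at most 5 dams, so pups of a group may be littermates, and the p-values may be too small. Each of the 23 two-colour arrays set 1 pup's RNA, in Cy5, against a pool of all samples, in Cy3. Values are log2 ratios of Cy5 to Cy3, and a difference is a CR mean minus a control mean on that scale.

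Glycolysis turns glucose into pyruvate in the cytosol and yields ATP and NADH. Hexokinase traps glucose as glucose-6-phosphate, phosphofructokinase makes the committed step and is the main point of control, aldolase splits the 6-carbon sugar, and the enzymes after it recover energy in the form of ATP. Resting lymphocytes use little glucose, whereas activated lymphocytes, monocytes and neutrophils depend on glycolysis, and red cells have no other source of ATP. Many genes of the pathway are targets of the hypoxia-inducible factors, which bind DNA at the core letters ACGTG or GCGTG.

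No enzyme differed between diets or between the sexes at a Benjamini-Hochberg adjusted p under 0.05 in limma. In females, the largest differences were those of Pgam1 (-0.24 ± 0.08, SE), Pgk1 (-0.18 ± 0.09), Eno1 (-0.17 ± 0.06), Aldoa (-0.15 ± 0.12) and Pfkm (-0.14 ± 0.05), all lower in CR females, with adjusted p of 0.995 each in limma. With scale normalization between arrays the female values were -0.39 for Pgam1, -0.09 for Pgk1, -0.11 for Eno1 and -0.0075 for Aldoa. In males the same genes gave 0.0017 ± 0.0855 for Pgam1, -0.14 ± 0.10 for Pgk1, 0.015 ± 0.062 for Eno1, -0.027 ± 0.129 for Aldoa and -0.036 ± 0.057 for Pfkm. With loess, differences were thus small in scale: a value of -0.24 is a level 0.846 times that of control females. With median centring in place of loess the male values were larger. They were -0.51 for Pgam1, -0.64 for Pgk1, -0.51 for Eno1, -0.52 for Aldoa and -0.40 for Pfkm (adjusted p from 0.0898 to 0.118 in limma).

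The promoters of the 3 enzymes with an unadjusted p under 0.05 in females, Pgam1, Eno1 and Pfkm, are shown so that the hypoxia-factor core can be seen in place. Each window of 300 bases spans a RefSeq start, most of it upstream, on assembly GRCr8, written 5′ to 3′ on the gene's strand. Capitals mark ACGTG or GCGTG on either strand (on the other strand they read CACGT and CACGC), and overlapping matches run together.
Pgam1: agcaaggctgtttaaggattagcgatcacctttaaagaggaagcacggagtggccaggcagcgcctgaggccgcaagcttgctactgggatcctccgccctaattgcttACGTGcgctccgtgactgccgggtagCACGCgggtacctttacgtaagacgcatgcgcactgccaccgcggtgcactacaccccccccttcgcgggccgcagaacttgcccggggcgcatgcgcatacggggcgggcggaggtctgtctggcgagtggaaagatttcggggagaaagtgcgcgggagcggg
Eno1, first start: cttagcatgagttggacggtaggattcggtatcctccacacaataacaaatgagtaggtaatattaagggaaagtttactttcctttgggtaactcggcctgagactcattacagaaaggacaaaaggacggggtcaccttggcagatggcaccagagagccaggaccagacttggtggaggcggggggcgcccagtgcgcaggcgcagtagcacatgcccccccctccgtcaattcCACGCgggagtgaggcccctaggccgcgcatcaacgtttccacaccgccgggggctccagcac
Eno1, second start: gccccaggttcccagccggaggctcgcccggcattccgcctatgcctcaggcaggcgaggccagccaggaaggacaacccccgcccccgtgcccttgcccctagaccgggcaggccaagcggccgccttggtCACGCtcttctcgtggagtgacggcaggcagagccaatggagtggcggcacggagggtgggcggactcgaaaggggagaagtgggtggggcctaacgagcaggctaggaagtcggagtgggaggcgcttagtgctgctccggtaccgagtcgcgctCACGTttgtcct
Pfkm: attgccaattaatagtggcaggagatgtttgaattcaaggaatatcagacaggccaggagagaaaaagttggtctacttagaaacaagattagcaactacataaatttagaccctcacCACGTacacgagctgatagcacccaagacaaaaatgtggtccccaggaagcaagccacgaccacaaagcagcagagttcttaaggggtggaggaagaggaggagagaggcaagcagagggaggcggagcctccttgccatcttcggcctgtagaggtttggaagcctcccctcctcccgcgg
The Pgam1 window, at chr1:250672902-250673201 on the plus strand, held 1 ACGTG and 1 GCGTG. The array design places the Pgam1 probes on chromosomes 10 and 6 (rn4), so this promoter may not be that of the RNA measured. The first Eno1 window, at chr5:166002617-166002916 on the plus strand, held 1 GCGTG, and the second, at chr5:166003111-166003410 on the plus strand, held 1 of each core. The Pfkm window, at chr7:131113849-131114148 on the plus strand, held 1 ACGTG. Sequence was at hand for 9 of the 10 enzymes, in 13 windows, and 9 windows of 8 enzymes held a core. Among 33469 rat promoter windows of the same length, 41.6% held one (19.3% ACGTG and 29.7% GCGTG). Both cores contain the letters CG, and the median window of the 33469 held 7 CG pairs. The enzymes' windows held 24, 12 and 4 (Aldoa), 16 and 25 (Eno1), 19 and 3 (Hk1), 18 (Hk2) and 3 (Hk3). Those of Pfkl, Pfkm, Pfkp and Pgam1 held 27, 7, 23 and 30. The share of windows with a core was not compared at equal CG content. A match describes letters in a window and says nothing of binding in these cells.

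Between 20603 and 24076 probes per array were well above background in Cy5, by the scanner software's flag. Markers of blood cells were counted among those found by name that passed the filter on dim signals, which raises the shares. Above background on all 23 arrays were 9 of 11 T cell, 9 of 9 B cell and 8 of 10 monocyte markers. These lists held 12 each. Natural killer cell markers gave 6 of 8, from a list of 10. Red cell markers gave 10 of 11, platelet 7 of 8 and neutrophil 7 of 8, from lists of 14, 12 and 13. These last lists are of cells that a mononuclear preparation aims to leave out. The sexes differed in 12 features at an adjusted p under 0.05. In bulk RNA such as this, fewer cells of a type and less RNA per cell cannot be told apart. The enzymes' probes other than those of Hk2 and Hk3 were well above background on 23 of 23 arrays, with no saturated spot. Precision is limited by how many arrays each group holds.

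The hexokinases start the pathway. Hk1, the widely expressed isoform that sits on mitochondria, had 2 probes, for which the array design gives no position. By its brighter probe, Hk1 had log2 ratios of -0.32, -0.02, -0.20, -0.12 and -0.05 in the 5 CR males, against a lowest of -0.30, a median of -0.13 and a highest of 0.02 in control males. In CR females the lowest, median and highest were -0.18, 0.0021 and 0.41, against -0.21, 0.11 and 0.41 in control females. The diets overlapped over nearly their whole range in both sexes. The differences were -0.017 ± 0.10 in males and -0.053 ± 0.096 in females (SE), with 95% intervals from -0.22 to 0.19 and from -0.25 to 0.15. The second Hk1 probe followed the first from array to array (r = 0.78 of deviations from group means, 23 arrays) and differed by -0.11 ± 0.14 in females.

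Hk1 also had the largest difference between the sexes among the enzymes. Averaged over diets, it was 0.869 times as high in males as in females, a log2 difference of -0.20 ± 0.07 with an unadjusted p of 0.00756 and an adjusted p of 0.663 in limma. The second probe gave -0.16 ± 0.10 (adjusted p = 0.759 in limma over 23693 probes). Red cell markers averaged 0.33 lower and monocyte markers 0.16 lower in males than in females on the log2 scale (11 and 10 markers). Within groups, neither slope of Hk1 on these lists was called: it was 0.12 ± 0.04 per unit of the red cell mean (adjusted p = 0.218 in limma) and 0.40 ± 0.14 per unit of the monocyte mean (adjusted p = 0.26). Their part in the sex difference was not tested.

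Hk2, the insulin-responsive and hypoxia-responsive isoform of muscle and activated lymphocytes, was at the edge of detection. Its probe, which the design places on chromosome 4 of rn4 from 116926495 to 116928002, was well above background on 1 of 23 arrays, a CR male. Its Cy5 signal lay between 40.3 and 54.2 (median 48.8) over a local background of 27, so no difference is given for it. Hk3, the isoform of myeloid cells, was also dim. Its probe (chromosome 17, 15668934 to 15668993, rn4) was well above background in 3 of 5 CR males, 1 of 6 control males, 4 of 6 CR females and 4 of 6 control females, with Cy5 signals of 44.8 to 99.5. In Cy3, the pool, it was well above background on 2 of 23 arrays, so the size of its ratios is not settled. Hk3 was the 1 enzyme of 9 with a higher value in CR pups of both sexes. Its log2 ratios were -0.06, -0.01, 0.10, 0.04 and -0.04 in CR males, against -0.17, -0.11 and 0.07 (lowest, median, highest) in control males. No CR male fell below the median of the control males, and the ranges overlapped. In CR females they were -0.06, -0.0040 and 0.29, against -0.07, -0.0050 and 0.13 in control females. The differences were 0.09 ± 0.06 in males (adjusted p = 0.79 in limma) and 0.06 ± 0.06 in females (adjusted p = 0.995). By the scanner software's ratio they were 0.55 in males and 0.69 in females, also not called.

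Phosphofructokinase is a tetramer of liver (Pfkl), muscle (Pfkm) and platelet (Pfkp) subunits in proportions that depend on the cell. The 3 subunits gave different values. Pfkm (chromosome 7, 136845936 to 136845995, rn4) had log2 ratios of 0.29, 0.22, -0.0012, 0.02 and 0.09 in CR males, against 0.06, 0.16 and 0.26 in control males. In CR females it ranged from 0.0009 to 0.17 (median 0.13), against 0.16 to 0.38 (median 0.24) in control females. In females, 4 of the 6 CR arrays lay below every control array and 5 of the 6 control arrays lay above every CR array, while the male groups were mixed. The female difference was -0.14 ± 0.05 (95% interval -0.26 to -0.03), with an unadjusted p of 0.014 and an adjusted p of 0.995 in limma, and it was negative on 5 of 6 slides that held both diets. In males it was -0.036 ± 0.057.

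Pfkp (chromosome 17, 74822635 to 74822694, rn4) was 0.15, 0.22, -0.0034, 0.10 and 0.23 in CR males, against -0.05, 0.02 and 0.51 in control males. The highest control male stood far above the other 5. In CR females it ranged from 0.0085 to 0.22 (median 0.11), against 0.09 to 0.42 (median 0.22) in control females. All 6 CR females were below the control median, and the ranges overlapped. The differences were 0.029 ± 0.081 in males and -0.12 ± 0.08 in females (adjusted p = 0.966 and 0.995 in limma). Pfkl (chromosome 20, 11032149 to 11032208, rn4) differed by 0.030 ± 0.063 in males and -0.034 ± 0.060 in females. Its 23 arrays spanned -0.08 to 0.23 with no order by diet.

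**Figure D1:**
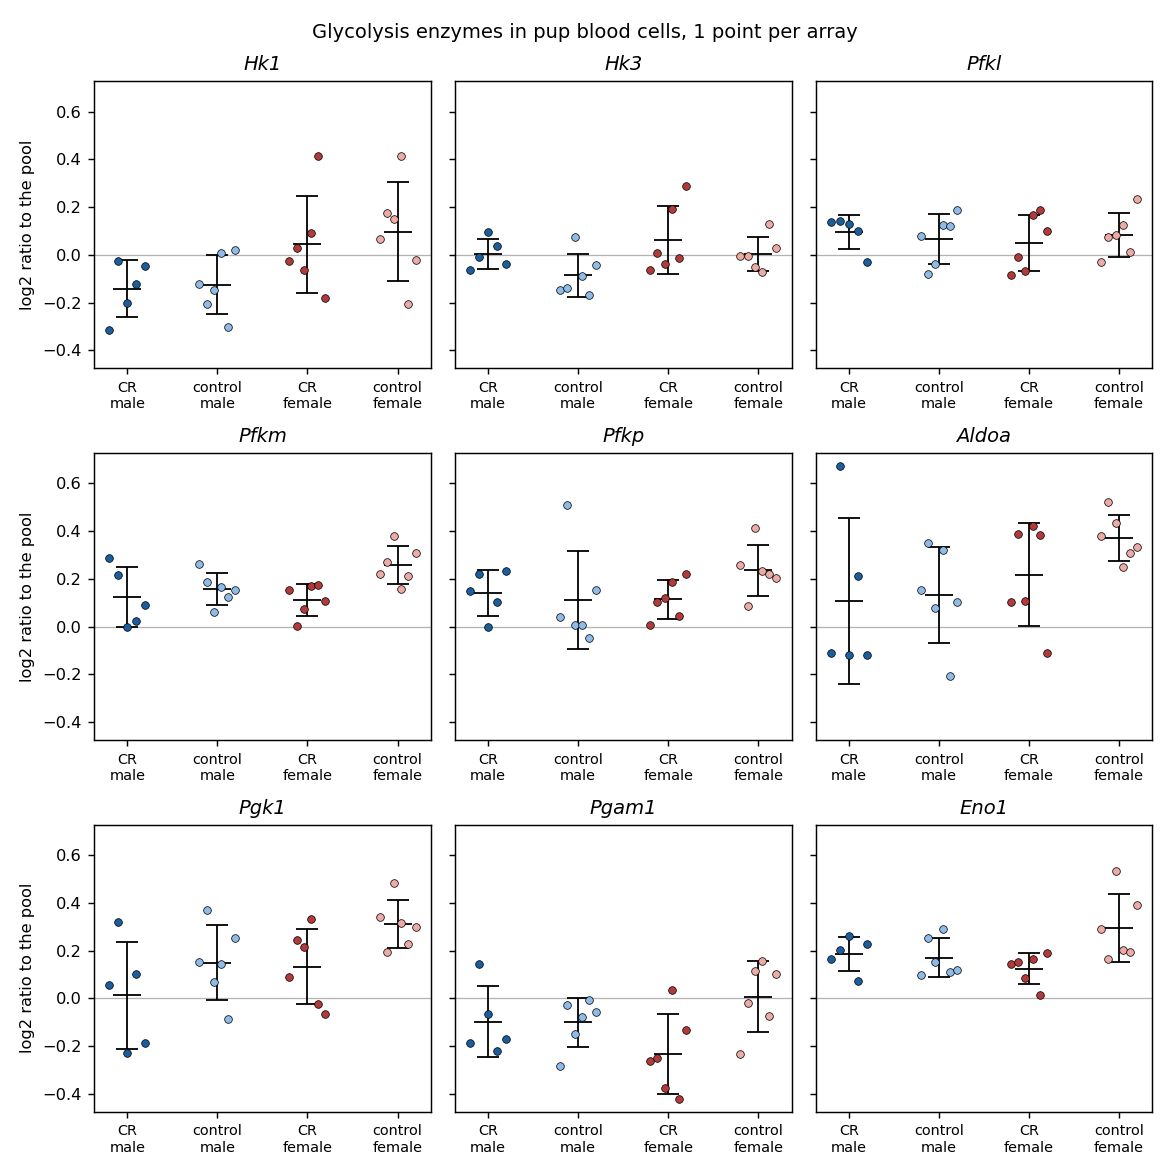
Log2 ratio of Cy5 to the pool (vertical axis, the same in every panel) for the 9 enzymes that were tested, by group (horizontal axis: CR males, n = 5, control males, CR females and control females, n = 6 each). Each point is 1 array, and the bars are the group mean ± SD. In females the CR points of Pfkm, Pgam1 and Eno1 sit lower than most control points, and in males the groups mix for these 3 genes.

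Aldoa, the muscle-type aldolase that also serves red and white blood cells, varied most from pup to pup among the enzymes. Its standard deviation within groups was 0.225 on 19 degrees of freedom, against a median of 0.137 over all features tested. Its log2 ratios (chromosome 1, 185972062 to 185972121, rn4) were -0.11, 0.67, -0.12, 0.21 and -0.12 in CR males, against -0.20, 0.13 and 0.35 in control males. The CR males fell into 3 low arrays and 2 higher ones, of which replicate 2 was above every other array of the study. CR females ranged from -0.11 to 0.42 (median 0.25), against 0.25 to 0.52 (median 0.36) in control females. The differences were -0.027 ± 0.129 in males and -0.15 ± 0.12 in females (adjusted p = 0.979 and 0.995 in limma). Without CR male replicate 2 the male difference was -0.17.

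Pgk1 makes the first ATP of the pathway and is X-linked (chromosome X, 94336783 to 94336842, rn4). It had log2 ratios of 0.06, 0.32, -0.23, 0.10 and -0.19 in CR males, against -0.09, 0.15 and 0.37 in control males. CR females ranged from -0.06 to 0.33 (median 0.15), against 0.20 to 0.48 (median 0.31) in control females. The ranges overlapped, but 3 of 6 CR females and 2 of 5 CR males lay below every control array of their sex. The differences were -0.14 ± 0.10 in males and -0.18 ± 0.09 in females, and -0.16 ± 0.07 for their mean (unadjusted p = 0.0253, adjusted p = 0.62 in limma). With median centring in place of loess the value was -0.64 in CR against control males (adjusted p = 0.0898 in limma) and -0.41 averaged over both sexes (adjusted p = 0.219). Males were lower than females by 0.14 ± 0.07 over diets (unadjusted p = 0.0447, adjusted p = 0.674 in limma).

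The 10 spots of the Pgk1 probe allow its spread to be divided. Within an array the spots had a standard deviation of 0.0226 to 0.130, with a median of 0.0442. Between arrays of a group the standard deviation was 0.162. The pup-to-pup differences of Pgk1 were therefore larger than the error of a spot, though what separates arrays includes labelling and hybridisation as well as the animals. On CR male replicate 3 and control male replicate 5 the spots ran over a wide range. Both were on slide 4, where the spots of CR female replicate 4 (0.21 to 0.45) and control female replicate 4 (0.21 to 0.44) also spread. The array means of that slide are less precise than most others.

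**Figure D2:**
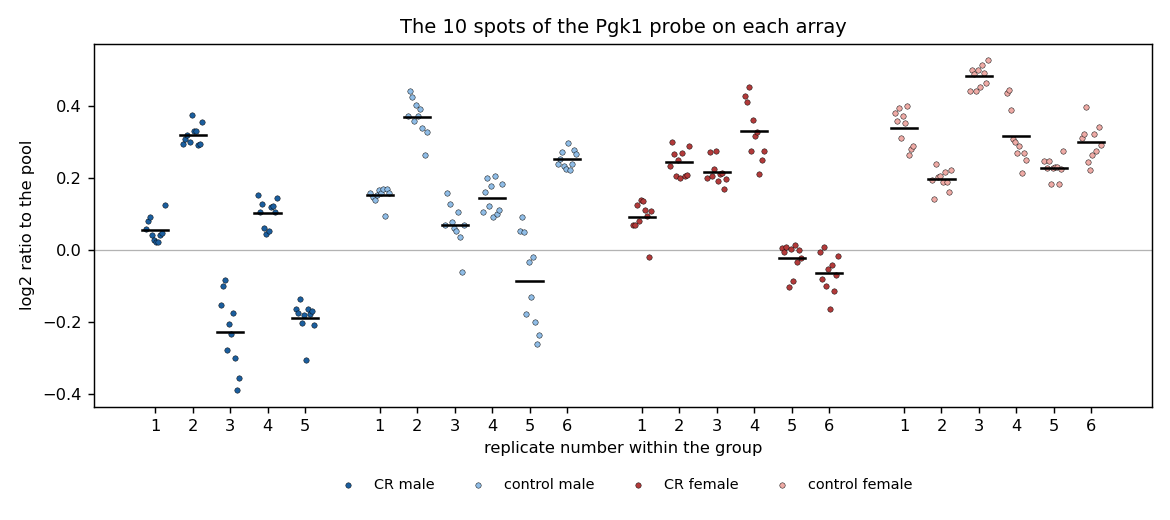
Log2 ratio of Cy5 to the pool (vertical axis) of each of the 10 spots of the Pgk1 probe on the 23 arrays, by group and replicate number (horizontal axis); points are spots and bars are array means. Spots of an array cluster around its mean (median SD 0.0442), while array means within a group differ more (SD 0.162).

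Pgam1, which moves the phosphate of 3-phosphoglycerate to carbon 2, had the largest difference in females. Its brighter probe gave log2 ratios of -0.18, 0.15, -0.06, -0.22 and -0.17 in CR males, against -0.28, -0.07 and -0.0050 in control males. CR females ranged from -0.42 to 0.04 (median -0.25), against -0.23 to 0.16 (median 0.04) in control females. Of the 6 CR females 4 lay below every control female and all 6 lay below the control median, while the ranges of CR and control males overlapped, with CR male replicate 2 above every control male. The female difference was -0.24 ± 0.08 (95% interval -0.41 to -0.07), with an unadjusted p of 0.00709 and an adjusted p of 0.995 in limma. It was negative on all 6 slides that held both diets, from -0.49 to -0.03. The male difference was 0.0017 ± 0.0855 (95% interval -0.18 to 0.18).

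The identity of the Pgam1 signal is less certain than that of the others. The array design places the brighter probe on chromosome 10 (110469834 to 110469894, rn4) and the second probe on chromosome 6 (9765707 to 9765761, rn4), whereas the RefSeq start of Pgam1 lies on chromosome 1. The 2 probes followed each other weakly, with r = 0.21 over 23 arrays. The second probe gave a female difference of -0.23 ± 0.14 (unadjusted p = 0.117, adjusted p = 0.994 in limma over 23693 probes) and a male difference of -0.13 ± 0.15. Signal from near-identical copies of the gene cannot be separated here.

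Eno1, the enolase of most cells, which also has a DNA-binding form described in human cells, was above the pool on 23 of 23 arrays. Since the pool holds all the samples, that offset carries no difference between groups. Its brighter probe (chromosome 5, 167405364 to 167405424, rn4) gave 0.17, 0.20, 0.26, 0.07 and 0.23 in CR males, against 0.10, 0.14 and 0.29 in control males. CR females ranged from 0.01 to 0.19 (median 0.15), against 0.17 to 0.53 (median 0.25) in control females. In females, 5 of 6 CR arrays lay below every control array and 5 of 6 control arrays lay above every CR array, the clearest separation among the enzymes, while the male groups overlapped. The female difference was -0.17 ± 0.06 (95% interval -0.29 to -0.05), a level 0.888 times that of control females, with an unadjusted p of 0.00795 and an adjusted p of 0.995 in limma. It was negative on all 6 slides with both diets, from -0.45 to -0.01. The male difference was 0.015 ± 0.062.

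The second Eno1 probe (chromosome 5, 167404770 to 167405180, rn4) gave a like value. CR females ranged from -0.03 to 0.24 (median 0.08), against 0.12 to 0.66 (median 0.24) in control females, a difference of -0.20 ± 0.09 (unadjusted p = 0.0311, adjusted p = 0.994 in limma over 23693 probes). The 2 probes followed each other over arrays with r = 0.73. In males the second probe differed by -0.047 ± 0.092.

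**Figure D3:**
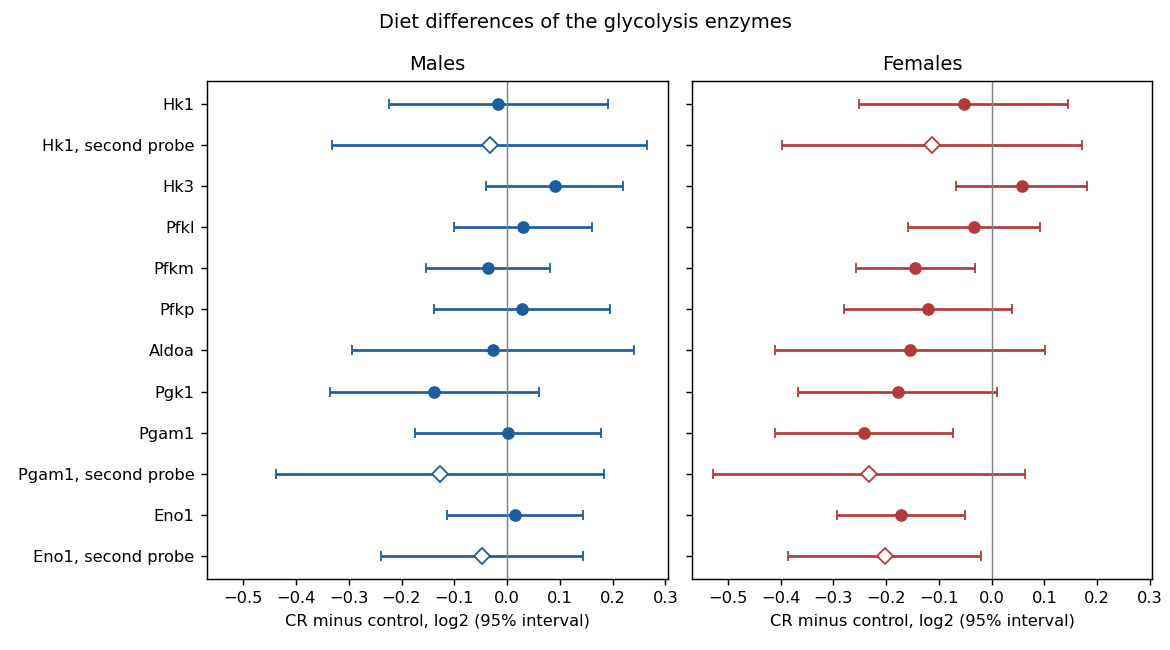
Difference of log2 ratio, CR minus control (horizontal axis, the same in both panels), for each enzyme in males (left, 5 CR and 6 control) and females (right, 6 and 6). Filled circles are the probes used, open diamonds the second probes, and bars the 95% intervals from limma, not adjusted for the number of features. In females the intervals of Pfkm, Pgam1, Eno1 and the second Eno1 probe lie below 0, and in males every interval spans 0.

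Read over the 9 enzymes, females gave 3 at an unadjusted p under 0.05, all lower in CR (Pgam1, Eno1 and Pfkm), where 2.65% of the 20755 features were lower at that level, and 4.64% passed it in either direction. None was called at an adjusted p under 0.05, and 0% of features were. Of the 9, 8 had negative values, against 48.4% of all features, and the median difference was -0.14, against 0.0033 over all features. With median centring in place of loess none of the 9 was lower in CR females at an unadjusted p under 0.05, where 0.925% of features were. Still, 8 of the 9 values were negative, with a median of -0.17. In males no enzyme passed an unadjusted p under 0.05, where 7.19% of features did and 0% were called. There 4 of 9 were lower, against 52.7% of features, with a median of 0.0017, against -0.0066 over all features. Under median centring the male split was 8 lower of 9, with a median of -0.46, and the median over all features moved to -0.19.

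For the mean of the sexes, Pfkm and Pgk1 passed an unadjusted p under 0.05, both lower in CR pups, where 4.86% of features were lower at that level and 0% were called at an adjusted p under 0.05. Of the 9 enzymes 8 had negative values, against 49.1% of features. Pfkm differed by -0.09 ± 0.04 (unadjusted p = 0.0315, adjusted p = 0.644 in limma). The male and female comparisons use separate arrays, but each also enters the mean.

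The difference between the male and the female diet effects was tested directly. All 9 values were positive, meaning a higher CR minus control value in males, while 52.4% of all features had negative ones. The sign depended on the processing: 0 of 9 were positive with median centring, 5 with marker covariates, 7 with scale normalization, and 8 with the scanner software's ratio or array weights. The median was 0.11, against -0.0074 over all features. Eno1 alone passed an unadjusted p under 0.05 (0.19 ± 0.09, unadjusted p = 0.0396, adjusted p = 0.936 in limma), where 1.97% of features were higher at that level and 0% were called. Pgam1 gave 0.24 ± 0.12 (adjusted p = 0.936 in limma), and Pfkm 0.11 ± 0.08. No enzyme's diet effect differed between the sexes at an adjusted p under 0.05. Between the sexes, Hk1 and Pgk1 passed an unadjusted p under 0.05, both lower in males, where 3.73% of features were lower at that level and 0.0578% were called. Of the 9 enzymes 7 had lower values in males, against 50.7% of features.

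The other genes of the pathway were taken from a list of 45 transporters, isoenzymes, regulators and pyruvate-handling genes, of which 36 were measured. None was called in any comparison, where 0% of all features were by diet and 0.0578% between the sexes. In females 22 were lower and 14 higher in CR, where 48.4% of all features were lower. Of the 36, 4 passed an unadjusted p under 0.05: Eno3 and Pkm lower, Ldhb and Vhl higher (Vhl by 0.24 ± 0.09). At that level 2.65% of all features were lower and 1.99% higher. In males 17 were lower and 19 higher, where 52.7% of features were lower. Fbp1 alone passed in males, lower in CR (-0.20 ± 0.08, adjusted p = 0.65 in limma), as were 4.07% of features at that level. For the mean of the sexes 21 were lower and 15 higher, where 49.1% of features were lower. Fbp1 (-0.17 ± 0.05, adjusted p = 0.588 in limma) and Egln3 (-0.14 ± 0.06) were lower at an unadjusted p under 0.05, and Ldhb (1.36 ± 0.53) and Vhl (0.13 ± 0.06) higher, as were 2.49% of features. Fbp1 is a gluconeogenic phosphatase that opposes phosphofructokinase, and Egln3 and Vhl act in the breakdown of the hypoxia-inducible factors. By the scanner software's ratio the mean of the sexes was -0.68 for Fbp1 and -0.33 for Egln3, and as the mean of probes it was -0.09 for Fbp1.

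The step after Eno1 is pyruvate kinase. Pkm, its isoform outside liver and red cells, ranged from 0.08 to 0.65 (median 0.25) in CR females, against 0.16 to 1.14 (median 0.52) in control females. The groups overlapped, with 3 of 6 CR females below every control female. The difference was -0.28 ± 0.13 (unadjusted p = 0.0417, adjusted p = 0.995 in limma), while in males it was 0.12 ± 0.13. Eno3, the muscle enolase, differed by -0.35 ± 0.14 in females (adjusted p = 0.995 in limma) and 0.0058 ± 0.1479 in males. Of the neighbours in the middle of the pathway, Tpi1 differed by -0.02 ± 0.08 in females and -0.09 ± 0.08 in males, and Gapdh by -0.15 ± 0.13 in females and 0.01 ± 0.13 in males.

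Ldhb, the heart-type subunit of lactate dehydrogenase, had the largest difference on the list in females. It differed by 1.93 ± 0.74 in females, a 3.82-fold difference (unadjusted p = 0.0153, adjusted p = 0.995 in limma), and by 0.79 ± 0.77 in males. Its arrays fell into 2 sets with nothing in between: 7 of 23 lay between -2.90 and -2.27, and the other 16 between 0.01 and 1.46. The low set held 1 of 5 CR males, 2 of 6 control males, 0 of 6 CR females and 4 of 6 control females. The arrays of the high set averaged 0.93 in CR males, 0.29 in control males, 0.56 in CR females and 0.66 in control females. Without CR male replicate 2 the male difference was 1.56. Ldha, the other main subunit, differed by -0.13 ± 0.11 in females and -0.17 ± 0.11 in males. Bpgm, the bisphosphoglycerate mutase of red cells, had the largest difference on the list in males (0.94 ± 0.59, adjusted p = 0.767 in limma) and -0.50 ± 0.56 in females.

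**Figure D4:**
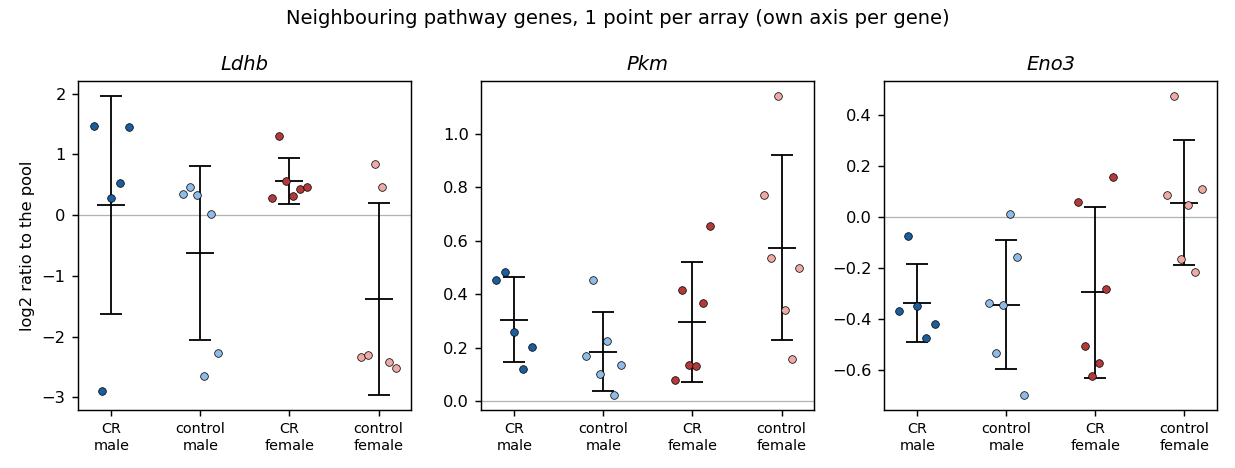
Log2 ratio of Cy5 to the pool (vertical axis, its own range in each panel) for Ldhb, Pkm and Eno3 by group (CR males, control males, CR females and control females); points are arrays and bars the group mean ± SD. Ldhb splits into 7 arrays from -2.90 to -2.27 and 16 above 0, and Pkm and Eno3 are continuous.

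The enzymes did not vary as a unit from pup to pup. After each group's mean was taken out, the 36 pairs of enzymes had a median Pearson's r of 0.20 over 23 arrays, from -0.31 to 0.72, and 27 were positive. These are descriptions: the values of an array share its labelling, its hybridisation and the cell make-up of its sample. The pairs above 0.5 were Aldoa with Pgk1 (0.72) and Pfkp with Pgk1 (0.57). Among 20695 features ranked by likeness to Pgk1, Aldoa stood at place 175. Eno1 and Pgam1, which had like differences in females, had r = 0.42, and Eno1 and Pfkm 0.25.

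**Figure D5:**
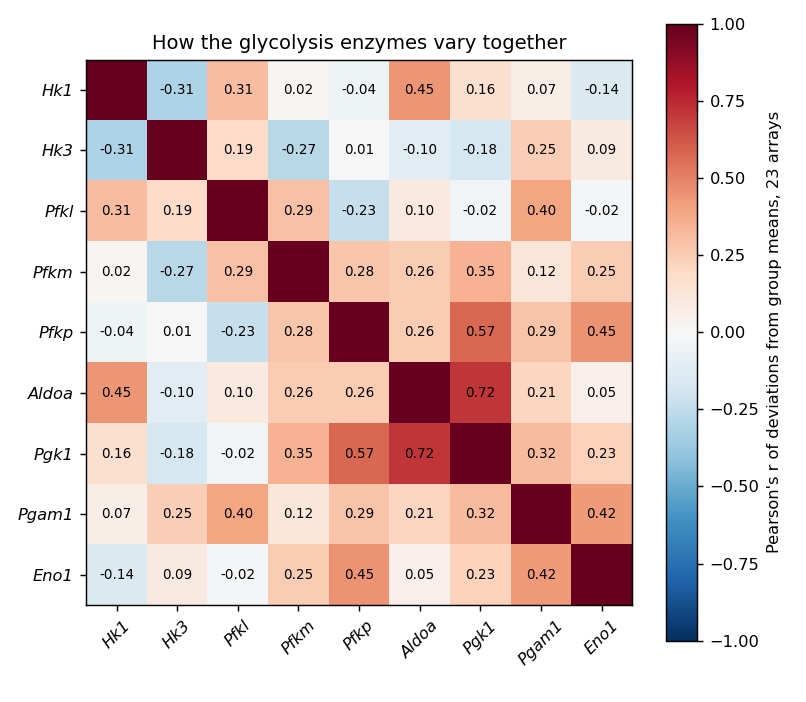
Pearson's r between the enzymes' deviations from their group means over 23 arrays (colour, from blue at -1 to red at 1, with the value in each cell). The Aldoa and Pgk1 pair is the highest at 0.72 and the Hk1 and Hk3 pair the lowest at -0.31.

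The named genes most like each enzyme by the same measure were as follows. Probes with no gene name, and names beginning with LOC or RGD, were left out, so other features may be more alike. Pgk1 was closest to Mdh2, a mitochondrial malate dehydrogenase (r = 0.87), Cops5 (0.86) and Ndufs1, a subunit of respiratory complex I (0.86). Aldoa was closest to Mvp (0.87), Cyc1, a subunit of complex III (0.86), and Mdh2 (0.82). Hk1 was closest to Mpst (0.87) and to Ptafr, the receptor for platelet-activating factor (0.86). Hk3 followed Mcpt1, a mast cell protease (0.87), Ms4a3, a marker of myeloid precursors (0.85), and Fam111a (0.82). Its probe was well above background on 12 of 23 arrays in Cy5 and 2 in Cy3, so these r rest on dim signals. Pfkm followed Tst (0.79) and Dlat, a subunit of pyruvate dehydrogenase (0.76). Eno1 followed Prmt5, an arginine methyltransferase (0.82), and Pigt (0.81). Pgam1 followed Hspbap1 (0.86) and Ddx18 (0.85), Pfkl followed Rbx1 (0.80) and Fam89b (0.79), and Pfkp followed Senp3 (0.83) and Ankzf1 (0.82).

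The means of the blood cell marker lists are given beside these values as descriptions, with no test by diet. In females the monocyte list averaged 0.23 lower in CR on the log2 scale, with 9 of 10 markers lower. Its summed log2 ratio ran from -2.86 to 2.38 in CR females, against -0.876 to 5.85 in control females. The red cell list averaged 0.30 lower in CR females (11 of 11 markers lower), with sums of -12.4 to 17.3, against -14.8 to 10.6 in control females. The B cell list averaged 0.32 lower (8 of 9) and the platelet list 0.43 lower (8 of 8), while cycling cell markers averaged 0.17 higher (0 of 13 lower). The neutrophil list averaged 0.13 higher in CR females (2 of 8 lower), and the natural killer cell list differed by 0.0061 (4 of 8 lower). In males the B cell list was 0.41 lower in CR (9 of 9), with sums of -5.8 to 0.958, against -0.77 to 5.48 in control males. The male red cell list was 0.62 higher in CR males (0 of 11 lower), the natural killer cell list 0.28 higher (0 of 8), the neutrophil list 0.25 higher (1 of 8) and the monocyte list 0.15 higher (1 of 10). The cycling cell list was 0.14 lower in CR males (12 of 13) and the platelet list 0.07 lower (6 of 8). T cell markers differed by 0.06 in males and -0.02 in females. With the monocyte and red cell means added to the model as covariates, the female differences were -0.20 for Pgam1, -0.15 for Eno1 and -0.11 for Pfkm, and those of Aldoa and Hk1 were -0.03 and 0.07. The part of the B cell, T cell, natural killer cell, neutrophil, platelet and cycling cell lists was not tested.

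Whether the enzymes followed cell make-up within groups was tested with the slope of each enzyme on each of 8 marker lists. None of the 72 slopes was called at an adjusted p under 0.05 in limma, where between 0.00964% and 2.87% of all features were, by list, and 10 passed an unadjusted p under 0.05, a level that 12% of all slopes of features on the lists reached. The smallest adjusted p was that of Hk3 on cycling cell markers (slope 0.25 ± 0.07, adjusted p = 0.105, with 1.75% of features called). Pfkl on red cell markers followed (0.08 ± 0.03, adjusted p = 0.137, 2.87% called), then Pgk1 on T cell markers (0.68 ± 0.24, adjusted p = 0.182, 1.24% called). Aldoa had a slope of 0.52 ± 0.18 on monocyte markers (adjusted p = 0.263, 0.742% called). Pgam1 had a slope of 0.25 ± 0.09 on neutrophil markers (adjusted p = 0.229, 0.68% called). The smallest adjusted p was 0.397 on B cell markers (Hk3, 0.829% called), 0.547 on natural killer cell markers (Eno1, 0.00964% called) and 0.463 on platelet markers (Pgam1, 2.12% called). These slopes depended on the processing: with median centring 29 of the 72 were called, with no share of all features to set beside them.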

How the data were processed

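PBMC RNA of 23 rat pups was measured on 2-colour arrays of Agilent design 014879, with positions on rn4. Per the submitters' processing notes, the authors extracted spots with version 10.5.1.1 of Agilent Feature Extraction. The deposited scanner files hold an intensity per spot and channel, unnormalized, per the file headers. They also hold a log10 ratio of Cy5 to Cy3, background-subtracted and dye-normalized by the scanner software, and other columns of spot flags, per the file headers. A deposited table of log2 levels (22920 of 43379 spots that are not controls, median 7.23 in its first array) was made in a way not given in the sources used here, so it served as an alternative. All RNA had a RIN above 8.0, per the labels' protocols. There was no dye swap, so a dye effect common to all arrays stays in each ratio and cancels between groups.

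Background was corrected by normexp in limma (offset 50) and the ratios by loess, array by array, in which control spots had weight 0. Spots flagged as outliers (127 to 427 per array) were dropped and spots of a probe averaged. Probes well above background in Cy5 on 50% or more of the arrays in 1 or more groups were kept (23693 of 41012). The brightest kept probe, by mean intensity, stood for its gene. The rat RefSeq table of GRCr8, used for names, named 19703 probes: 11138 by accession, 8552 by symbol or synonym and 13 by the members' names in the scanner files. Another 21309 had no name and stayed as features.

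A model of the 4 group means was fitted in R 4.3.3 with limma 3.58.1, with variances moderated toward a prior on 3.41 degrees of freedom. P-values were adjusted over 20755 features by Benjamini-Hochberg. The 5 contrasts were CR minus control in each sex and averaged over both, the difference of the diet effects, and males minus females. Slopes on a marker list came from the same model with the list's mean added. Every member is named whatever its p. Other pathway genes are named if their unadjusted p was under 0.05 in a diet contrast. Tpi1, Gapdh, Ldha and Bpgm were added as neighbours after their values were seen. The genes most like a member are from the top 3 by r among features with a gene name. The member itself and names beginning with LOC or RGD were left out. The members, gene lists and tests were chosen with earlier results of these data known. The fit and slopes were tested on simulated data. Samples of a group are separate pups. Alternatives were median centring, the scanner software's ratio, the value table, scale normalization, no filter, the mean of probes, slides or replicate numbers as blocks, array weights, marker covariates and leaving out each array.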

Additional observations from a re-analysis of the deposited data

Results flagged for a closer look

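The values of the 9 tested enzymes and 6 named pathway genes were screened in each of the 4 groups for an array far from the others, by Dixon's test at its 95% critical value. It marked 5 of 60 groups, and chance marks about 1 in 20. Pfkl in CR male replicate 5 had a log2 ratio of -0.0301, with 0.10 as the next value of its group. Pfkp in control male replicate 2 stood at 0.51, above a next value of 0.15. Ldhb stood apart in CR male replicate 2, at -2.90, against a next value of 0.28, and in CR female replicate 2, at 1.30, against 0.55. Egln3 in CR female replicate 6 was at 0.36, above a next value of 0.02.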

How the results depend on the processing

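No enzyme was called in any diet or sex comparison under any alternative run. The counts over all features were 0 in females under every alternative, and for the difference of the diet effects under every alternative but marker covariates, where the count was not run. In males 1 feature was called with the replicate block and 4 without CR male replicate 2 (range 0 to 4 over the arrays left out), and for the mean of the sexes 2 with array weights and 3 without CR male replicate 2 (range 0 to 3), or 1 without CR female replicate 1. Between the sexes 12 features were called, 8 with median centring, 9 with the scanner software's ratio, scale normalization or the replicate block, 10 with the slide block, and 10 to 12 with an array left out. Marker slopes of the enzymes, 0 at first, numbered 29 with median centring, 2 with the scanner software's ratio, 1 with the value table, 3 with scale normalization, 2 with array weights and 0 to 1 with an array left out (1 without CR female replicate 4 or control female replicate 5). The share of all features called is given for the main run only, so these slope counts are not read as particular to the enzymes. The count of enzymes lower in CR females at an unadjusted p under 0.05, added after seeing the data, was 3, with 0 under median centring, 4 with the replicate block, 2 with scale normalization or marker covariates, and 3 to 4 with an array left out. The share of all features lower at that level was 2.65% at first and 0.925% under median centring. It was 3.07% with the replicate block, 2.91% with scale normalization and 1.33% with marker covariates.

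The replicate numbers were not taken as pairs in the main fit. Deviations of same-numbered arrays correlated from -0.24 to 0.33 and above 0.1 in 7 of 11 pairs, which does not settle whether the numbers pair the samples. As a hint of pairing from the data, 10 of 22 arrays correlated best with their own number, and in females same-numbered pups shared a slide for all 6 numbers. Each slide held 1 CR female and 1 control female, so slides as blocks cannot move the female differences and do not test them. With that block they were -0.24 for Pgam1, -0.17 for Eno1 and -0.14 for Pfkm (adjusted p = 0.941 each in limma). The replicate block likewise cannot move the female differences, only their p-values. With the replicate block the enzymes lower in CR females at an unadjusted p under 0.05 numbered 4 (3.07% of all features) against 3 without it (2.65%). Pfkl for the mean of the sexes turned to 0.0087 with that block. No array had a root mean square log2 ratio above the limit of 0.362 (highest 0.308), so that alternative gave no value.

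The signs that turned belonged to values that were not called, and the cause was not tested. In males, median centring gave -0.12 for Pfkl, -0.29 for Pfkp, -0.51 for Pgam1, -0.51 for Eno1, -0.48 for Eno3, -0.37 for Pkm and -0.46 for Vhl, where the median of all features moved by -0.19. It gave -0.11 for Vhl over the sexes, -0.15 for Pgam1 between the sexes and -0.36 for the difference of the Eno1 diet effects. Values that kept their sign moved too: in males -0.46 for Hk1, -0.40 for Pfkm, -0.52 for Aldoa and -0.64 for Pgk1. In males Pgam1 was -0.0008 by the scanner software's ratio, -0.016 by the value table, -0.042 with scale normalization, -0.062 as the mean of probes, -0.012 with the slide block, -0.040 with array weights, -0.030 with marker covariates and -0.13 by the second probe. Eno1 in males was -0.031 by the value table, -0.016 as the mean of probes, -0.014 with array weights and -0.047 by the second probe. Eno3 in males was -0.0039 by the value table, -0.080 with scale normalization, -0.049 with array weights and -0.064 with covariates. Other male values were 0.0036 for Hk1 by the scanner software's ratio, 0.013 for Fbp1 by the value table, 0.016 for Aldoa and -0.019 for Vhl with scale normalization, -0.0036 for Vhl as the mean of probes, and -0.014 and -0.027 for Pfkl with the slide block and covariates. In females Hk1 was 0.0025 with scale normalization and 0.072 with covariates, and Pfkl 0.0023 with covariates. Over the sexes Pfkl was 0.061 by the scanner software's ratio, 0.017 by the value table and 0.0053 with scale normalization, which gave 0.0041 for Aldoa and 0.0080 for Pkm. Between the sexes Pfkl was -0.022 by the value table, and Pgam1 -0.043 as the mean of probes and -0.099 by the second probe.

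With an array left out, male differences ranged from -0.052 to 0.027 for Hk1, -0.0033 to 0.11 for Pfkp, -0.17 to 0.03 for Aldoa, -0.059 to 0.032 for Pgam1, -0.0042 to 0.044 for Eno1, -0.065 to 0.077 for Eno3 and -0.026 to 0.074 for Vhl. Hk1 in females ranged from -0.13 to 0.010, Pfkl over the sexes from -0.017 to 0.014 and Pgam1 between the sexes from -0.017 to 0.041. In females the range was -0.30 to -0.20 for Pgam1, -0.20 to -0.12 for Eno1 and -0.16 to -0.12 for Pfkm. Signal over background limits Hk2 and Hk3.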
